A study of Mus musculus with 12 samples.

Results

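The ATP-binding cassette (ABC) transporters described here are 8 genes often studied in blood stem cells: Abca1, Abcg1, Abcg2, Abcg3, Abcb1a, Abcb1b, Abcc1 and Abcc4. Every probe set that the platform annotation pairs with 1 of these symbols was taken, which gave 15 probe sets for the 8 genes, of 18194 genes with a probe set of a single symbol on the array. Of the 15, 13 were bright enough to be tested and 2 were not (Abcb1b 1446701_at and Abca1 1450392_at).

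ABC transporters use ATP hydrolysis to move lipids, drugs, conjugated metabolites and signalling molecules across membranes. In bone marrow, efflux of fluorescent dyes by such pumps is a classical property by which primitive cells are recognised, and export of cholesterol by Abca1 and Abcg1 is known to restrain proliferation of stem and progenitor cells. FoxO factors are transcription factors downstream of growth factor signalling that keep mouse blood stem cells quiescent and limit their reactive oxygen species.

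Expression was measured on 12 Affymetrix mouse arrays in 4 groups of 3: FoxO-deficient myeloid progenitors (arrays 10, 11 and 12), wild-type myeloid progenitors (arrays 7, 8 and 9), FoxO-deficient LSK cells (arrays 4, 5 and 6) and wild-type LSK cells (arrays 1, 2 and 3). The labels present the LSK samples as bone marrow hematopoietic stem cells; LSK stands for lineage-negative, Sca-1-positive and Kit-positive, a fraction that also holds progenitors, and myeloid progenitors are more restricted. All groups came from pooled mice with floxed FoxO1, FoxO3 and FoxO4; the deficient groups carried Mx-Cre, a recombinase under an interferon-inducible promoter, and the groups called wild type lacked it. Any effect of the transgene therefore cannot be told apart from loss of FoxO, and neither age nor an inducing agent is given in the labels. Labelling was done in triplicate, and no label states that the triplicates are independent pools of mice, so the p-values rest on array-to-array spread that may be technical only.

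Array medians of the deposited intensities lay between 8 and 13.5. Foxo4, by its brightest probe set, averaged 59.3 in FoxO-deficient and 329 in wild-type myeloid progenitors (log2 change -2.46 ± 0.20, limma adjusted p = 0.00028), and 85.2 in FoxO-deficient and 393 in wild-type LSK cells (-2.20 ± 0.20, adjusted p = 0.00447). The brightest probe sets of Foxo1 and Foxo3 passed no test, and where they lie relative to the deleted exons is not known here. In wild-type myeloid progenitors 9 of 10 measured LSK marker genes were called lower and 10 of 11 myeloid progenitor marker genes higher than in wild-type LSK cells. Array 2, a wild-type LSK array, differed in its RNA quality controls: its ratio of 3′ to 5′ signal was 344 for Gapdh and 145 for Actb, against 1.77 to 2.37 and 2.74 to 3.36 on the other 11 arrays. Results that depend on it are given with and without it.

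The main pattern was between the cell types. The members were chosen with earlier results of these data known, so the shares over all probe sets beside their counts are descriptive only. In wild-type cells, 7 of the 13 tested probe sets, from 5 of the 8 genes (Abcg3, Abca1, Abcg1, Abcb1b and Abcc1), were called lower in myeloid progenitors than in LSK cells and 0 were called higher, against 7.59% of all 31779 tested probe sets called lower. When only the 2 wild-type groups were fitted, 4 of the 13 were called lower, without Abca1 and Abcb1b. Calls in either direction over all probe sets then fell from 4619 to 1261. In FoxO-deficient cells 4 of 13 were called lower, from Abcg3, Abcg1 and Abcc1, against 7.82% of all tested probe sets. The median log2 change of the 13 was -1.46 in wild-type and -0.65 in FoxO-deficient cells, where the medians of all tested probe sets were 0.06 and 0.06. A probe set was called at a limma adjusted p under 0.05, with Benjamini-Hochberg adjustment over all 31779; values below are normalized intensities on a linear scale unless a log2 change is stated, errors of log2 changes are standard errors with 3 arrays per group, and levels of different probe sets are not comparable. Means of intensities over arrays were taken on the log2 scale and converted back. In RNA from sorted populations, fewer cells that express a gene and less RNA per cell cannot be told apart.

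**Figure D1:**
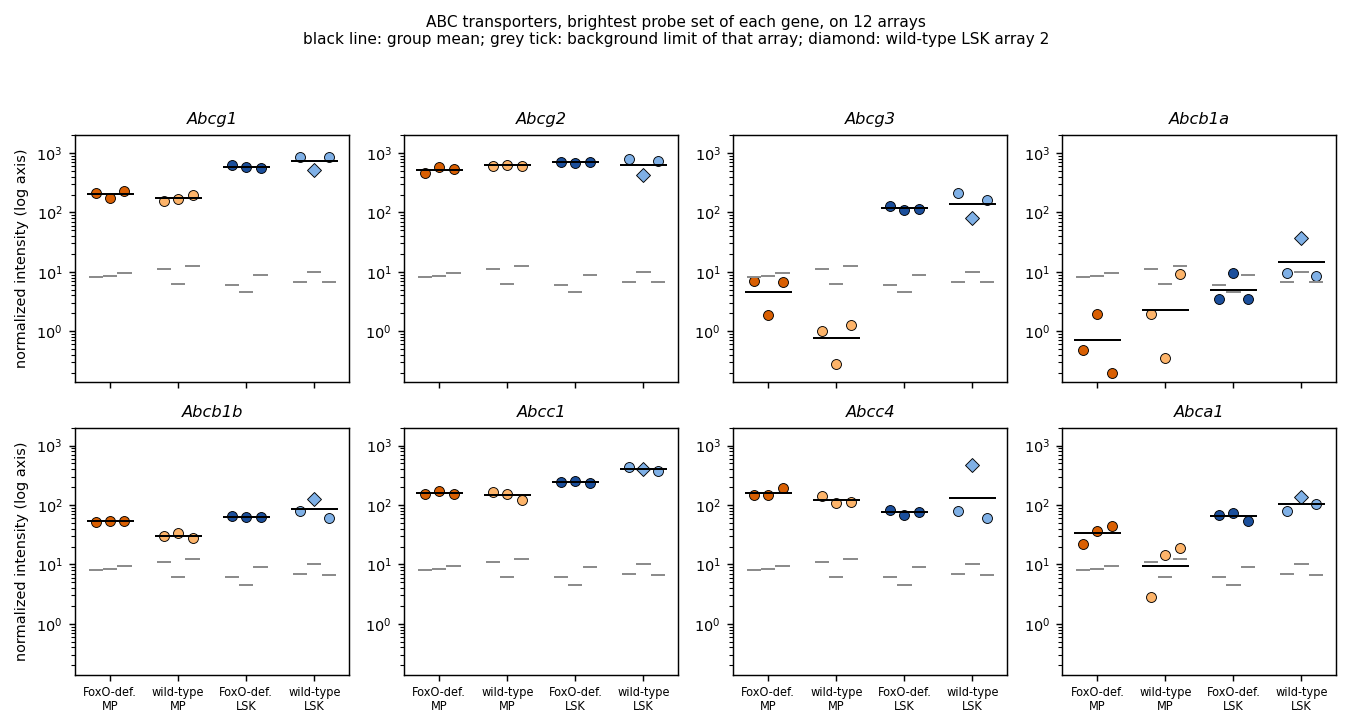
Normalized intensity (log axis) of the brightest probe set of each of the 8 genes on 12 arrays; columns are FoxO-deficient and wild-type myeloid progenitors (MP) and FoxO-deficient and wild-type LSK cells, black lines are group means, grey ticks are each array's background limit and the diamond is wild-type LSK array 2. Abcg3 lies at or under the limit on all 6 myeloid progenitor arrays and above it on all 6 LSK arrays, while the Abcg2 groups lie close together.

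Abca1, the transporter that loads cellular cholesterol and phospholipid onto lipid-poor apolipoprotein A1, was measured by 1421840_at. It read 22.3, 36.7 and 44.5 in FoxO-deficient myeloid progenitors, against 2.85, 14.1 and 18.8 in wild-type myeloid progenitors. In LSK cells it read 68.5, 72.8 and 54.3 in FoxO-deficient cells, against 78.7, 137 and 106 in wild-type cells. No pair of neighbouring groups overlapped: the order of the group means was wild-type LSK (105), FoxO-deficient LSK (64.7), FoxO-deficient myeloid progenitors (33.2) and wild-type myeloid progenitors (9.34).

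Abca1 fell in wild-type myeloid progenitors relative to wild-type LSK cells, by 3.40 ± 0.57 on the log2 scale (limma adjusted p = 0.00376). Only 2 of the 3 wild-type myeloid progenitor arrays exceeded their background limit, the exception being array 7, so the size of this change is uncertain. In FoxO-deficient cells the same comparison gave -0.95 ± 0.57 (limma adjusted p = 0.315). No step between neighbours in the order passed the test. FoxO-deficient over wild-type myeloid progenitors gave 1.76 ± 0.57, with an unadjusted p of 0.0113 and a limma adjusted p of 0.211, and FoxO-deficient over wild-type LSK cells gave -0.69 ± 0.57 (adjusted p = 0.659). The other Abca1 probe sets were dim: 1421839_at exceeded the background limit on 3 of 12 arrays and was not called anywhere, and 1450392_at exceeded it on 1 array and was not tested.

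Abcg1, which passes cholesterol to high-density lipoprotein and is induced with Abca1 by liver X receptors, followed the cell type. Its probe set 1423570_at read 210, 176 and 231 in FoxO-deficient myeloid progenitors and 153, 170 and 199 in wild-type myeloid progenitors, which overlapped. It read 625, 589 and 551 in FoxO-deficient LSK cells and 868, 523 and 871 in wild-type LSK cells, again overlapping through array 2. Every myeloid progenitor array lay below every LSK array.

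The fall of Abcg1 in myeloid progenitors was called in both genotypes. It was 4.24-fold in wild-type cells (log2 change -2.08 ± 0.24, limma adjusted p = 0.000414) and 2.87-fold in FoxO-deficient cells (-1.52 ± 0.24, adjusted p = 0.00213). The FoxO comparisons gave 0.24 ± 0.24 in myeloid progenitors (95% interval -0.28 to 0.76) and -0.32 ± 0.24 in LSK cells (-0.84 to 0.20), and neither was called. Without array 2 the LSK value was -0.56 ± 0.16 (limma adjusted p = 0.176). The difference between the FoxO effects was then 0.80 ± 0.21 (limma adjusted p = 0.108). The second Abcg1 probe set, 1455221_at, ran between 1.64 and 15.6 over the 12 arrays and exceeded the background limit on 7 of them. With 12 arrays it was not called in any comparison. Without FoxO-deficient myeloid progenitor array 10 it was called lower in FoxO-deficient myeloid progenitors than in FoxO-deficient LSK cells (-2.43, limma adjusted p = 0.0308).

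Abca1 and Abcg1 are also abundant in macrophages, so monocyte and macrophage markers are given beside them. The summed intensity of the 8 measured markers was 534 to 590 in FoxO-deficient and 762 to 917 in wild-type myeloid progenitors, and 223 to 240 in FoxO-deficient and 190 to 637 in wild-type LSK cells. In FoxO-deficient myeloid progenitors 2 of the 8 were called higher and 1 lower than in FoxO-deficient LSK cells, against 8.53% and 8.51% of all genes, and in wild-type myeloid progenitors 2 were called higher and 0 lower, against 8.00% and 10.0%. On all 3 arrays of a group, 6 of the 8 exceeded the background limit in FoxO-deficient and 5 in wild-type myeloid progenitors, and 7 in FoxO-deficient and 3 in wild-type LSK cells. Adgre1, the F4/80 antigen of macrophages, was the 1 marker above the limit on no array of a group, in both wild-type groups. Their part in the result was not tested.

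Abcg2, the pump that exports Hoechst dye and defines the side population of mouse marrow stem cells, has a single probe set here and was not called in any comparison. It read 458, 575 and 545 in FoxO-deficient and 616, 633 and 599 in wild-type myeloid progenitors, and 701, 685 and 714 in FoxO-deficient and 777, 432 and 728 in wild-type LSK cells. All 3 FoxO-deficient myeloid progenitor arrays lay below all 3 wild-type ones, but by little: the log2 change was -0.23 (95% interval -0.75 to 0.28, limma adjusted p = 0.811). In LSK cells the FoxO change was 0.16 (-0.35 to 0.68, adjusted p = 0.798).

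Myeloid progenitors carried Abcg2 signal close to that of LSK cells. The wild-type change was -0.02 (95% interval -0.53 to 0.49, limma adjusted p = 0.965), and the FoxO-deficient change was -0.42 ± 0.23 (adjusted p = 0.271). Array 2, which read 0.574 times the mean of the other wild-type LSK arrays, widened the spread used in every comparison. Without it the FoxO-deficient change was -0.41 ± 0.11 and was called (adjusted p = 0.0229), and the wild-type change was -0.28 ± 0.12.

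Abcb1a and Abcb1b encode the mouse drug-efflux P-glycoproteins, which in humans are a single gene. The pair lie next to each other on chromosome 5 and are closely related in sequence, so a probe for one may also bind the other's transcript, and their separate values are uncertain for that reason. Abcb1b 1418872_at read 52.4, 53.3 and 53.2 in FoxO-deficient myeloid progenitors, against 29.8, 34.3 and 28.1 in wild-type myeloid progenitors. It read 65.1, 61.9 and 63.9 in FoxO-deficient LSK cells, against 80.4, 127 and 60.9 in wild-type LSK cells. The myeloid progenitor genotypes did not overlap, and the LSK genotypes did.

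Abcb1b fell 2.79-fold in wild-type myeloid progenitors relative to wild-type LSK cells (log2 change -1.46 ± 0.25, limma adjusted p = 0.00398). Without array 2, which read the 127, the change was smaller but still called (-1.18 ± 0.15, adjusted p = 0.000773). In FoxO-deficient cells the change was -0.26 ± 0.25 (adjusted p = 0.547), although all 3 myeloid progenitor arrays lay below all 3 LSK arrays. FoxO-deficient over wild-type myeloid progenitors gave 0.78 ± 0.25, with an unadjusted p of 0.0104 and an adjusted p of 0.202. It was thus not called with 12 arrays, and the outcome depended on an array of another group. Without wild-type LSK array 2 the change was 0.78 ± 0.13 and passed the test (limma adjusted p = 0.0117). In that fit 6.23% of all tested probe sets were called in either direction. The difference of the FoxO effect between the cell types was 1.20 ± 0.35 with 12 arrays (adjusted p = 0.219) and 0.92 ± 0.19 without array 2 (adjusted p = 0.055). The second Abcb1b probe set, 1446701_at, exceeded the background limit on 0 of 12 arrays and was not tested.

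Abcb1a was near background. Its probe set 1419759_at read 0.489, 1.96 and 0.200 in FoxO-deficient and 1.94, 0.356 and 9.12 in wild-type myeloid progenitors, and 3.42, 9.72 and 3.44 in FoxO-deficient and 9.39, 36.4 and 8.45 in wild-type LSK cells. The 36.4 is array 2, which read 4.09 times the mean of the other wild-type LSK arrays. Signal exceeded the background limit on all 3 wild-type LSK arrays, on 1 FoxO-deficient LSK array and on 0 of 6 myeloid progenitor arrays. Between the wild-type cell types the arrays overlapped, with 9.12 on myeloid progenitor array 9 and 8.45 on LSK array 3. The change did not pass the test with 12 arrays (limma adjusted p = 0.100) or without array 2 (log2 change -1.73 ± 0.92, adjusted p = 0.218). It passed only without myeloid progenitor array 9 (-3.28, adjusted p = 0.0354). The lower bound of 1.53-fold rests on an LSK mean that includes array 2. No bound could be given in FoxO-deficient cells (adjusted p = 0.149). The other probe set, 1419758_at, exceeded the limit on 2 of 12 arrays and was not called.

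P-glycoprotein is also abundant in brain endothelium, so endothelial and stromal markers are given beside Abcb1a and Abcb1b. Their summed intensity over 7 measured genes was 67.9 to 95.1 in FoxO-deficient and 63.7 to 76.6 in wild-type myeloid progenitors, and 206 to 222 in FoxO-deficient and 272 to 318 in wild-type LSK cells. In FoxO-deficient myeloid progenitors 1 of the 7 was called lower than in FoxO-deficient LSK cells, against 8.51% of all genes, and in wild-type myeloid progenitors 3 were called lower than in wild-type LSK cells, against 10.0%; 0 were called higher. The medians of the 7 log2 changes were -0.23 in FoxO-deficient and -1.41 in wild-type cells. On all 3 arrays of a group, 2 of the 7 exceeded the background limit in each myeloid progenitor group and 3 in each LSK group. Cdh5 (endothelial VE-cadherin) and Cxcl12 (a stromal chemokine) exceeded it on no wild-type LSK array, and on at least 1 FoxO-deficient LSK array. All other measured markers of this list exceeded it on at least 1 array of each LSK group. The part of such cells in the values was not tested.

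The promoter windows of the genes with an unadjusted p under 0.05 for FoxO deficiency in myeloid progenitors (Abcg3, Abcb1b and Abca1) and of Abcb1a, the neighbour of Abcb1b, are printed because FoxO factors are known to bind defined core letters. For Abcg3 that p compares values that were all under the background limit, and it is not read as a difference. Each window is 300 bases that run across a RefSeq transcript start, mostly upstream of it, in build GRCm38.p6. They were available for 6 of the 8 genes, in 9 windows. The letters searched, on both strands, were GTAAACA, the core of the DAF-16 family binding element, and CAAAACA, the core of the insulin response element; the searches do not overlap, and matches are in capitals.
Abcb1a, chr5:8566841-8567140, plus strand: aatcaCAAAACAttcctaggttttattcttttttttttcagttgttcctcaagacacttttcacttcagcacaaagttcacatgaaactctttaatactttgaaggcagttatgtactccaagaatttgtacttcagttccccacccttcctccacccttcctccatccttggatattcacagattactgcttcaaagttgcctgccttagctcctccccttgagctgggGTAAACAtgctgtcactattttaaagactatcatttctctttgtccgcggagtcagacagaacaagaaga
Abcb1b, chr5:8797897-8798196, plus strand: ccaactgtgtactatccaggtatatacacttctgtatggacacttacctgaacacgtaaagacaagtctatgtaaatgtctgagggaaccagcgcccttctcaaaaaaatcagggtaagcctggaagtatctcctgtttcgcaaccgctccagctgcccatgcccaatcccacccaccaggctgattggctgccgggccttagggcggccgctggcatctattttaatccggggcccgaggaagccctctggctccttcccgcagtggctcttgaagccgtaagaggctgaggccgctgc
Abcg3, chr5:104982668-104982967, minus strand: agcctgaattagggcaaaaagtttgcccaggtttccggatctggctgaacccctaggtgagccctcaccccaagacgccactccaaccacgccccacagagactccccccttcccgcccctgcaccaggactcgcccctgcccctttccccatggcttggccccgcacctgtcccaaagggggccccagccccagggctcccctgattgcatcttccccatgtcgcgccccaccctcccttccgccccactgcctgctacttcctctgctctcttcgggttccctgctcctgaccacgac
Abca1, chr4:53159846-53160145, minus strand: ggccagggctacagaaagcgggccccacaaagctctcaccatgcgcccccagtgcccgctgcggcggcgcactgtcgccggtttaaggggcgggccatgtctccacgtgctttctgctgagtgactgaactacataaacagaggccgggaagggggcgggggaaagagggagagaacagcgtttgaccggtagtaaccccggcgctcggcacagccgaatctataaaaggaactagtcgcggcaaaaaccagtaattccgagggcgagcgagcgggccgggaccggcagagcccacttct

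Among the 9 windows only that of Abcb1a held these letters. It had GTAAACA 20 bases and CAAAACA 245 bases before the start. Of 32851 mouse promoter windows of this length, 3.65% held GTAAACA and 6.28% held CAAAACA, and 9.63% held either. A match describes letters and not a bound site, and the absence of a match in the Abcb1b, Abcg3 and Abca1 windows says nothing beyond those 300 bases. The G+C content of the printed windows was 40.3% for Abcb1a, 55% for Abcb1b, 65.3% for Abcg3 and 62.7% for Abca1.

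Abcc1, which exports glutathione and glucuronide conjugates and leukotriene C4, had the smallest standard error of the 13 tested probe sets. Its probe set 1452233_at read 154, 173 and 152 in FoxO-deficient and 169, 154 and 122 in wild-type myeloid progenitors. It read 242, 252 and 232 in FoxO-deficient LSK cells, against 435, 399 and 370 in wild-type LSK cells. The FoxO-deficient LSK arrays lay below every wild-type LSK array, and array 2, with 399, sat between the other arrays of its group. The order of the means was wild-type LSK (400), FoxO-deficient LSK (242), FoxO-deficient myeloid progenitors (159) and wild-type myeloid progenitors (147), the last pair overlapping.

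Abcc1 fell 2.72-fold in wild-type myeloid progenitors relative to wild-type LSK cells (log2 change -1.44 ± 0.18, limma adjusted p = 0.000665). In FoxO-deficient cells it fell 1.52-fold (-0.60 ± 0.18, adjusted p = 0.0477), a call that was lost without FoxO-deficient LSK array 4 (adjusted p = 0.118) and in 8 other fits with an array left out. FoxO-deficient over wild-type LSK cells gave -0.72 ± 0.18, with an unadjusted p of 0.00219 and an adjusted p of 0.207 (0.103 without array 2). FoxO-deficient over wild-type myeloid progenitors gave 0.12 ± 0.18, and the difference between these effects was 0.84 ± 0.25 (adjusted p = 0.231). A second probe set, 1421378_s_at, whose suffix marks probes shared by several transcripts, also fell in wild-type myeloid progenitors (-1.06 ± 0.25, adjusted p = 0.0187) and gave -0.30 ± 0.25 in FoxO-deficient cells (adjusted p = 0.475). The wild-type call of that probe set was lost without wild-type myeloid progenitor array 8 (adjusted p = 0.0646) and without array 9 (0.0687).

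Abcc4, which exports cyclic nucleotides, prostaglandins and urate, was the member most affected by array 2. Its single probe set read 148, 146 and 192 in FoxO-deficient and 141, 108 and 113 in wild-type myeloid progenitors, with no overlap. It read 83.0, 68.0 and 75.1 in FoxO-deficient LSK cells and 79.2, 465 and 59.8 in wild-type LSK cells, where 465 is array 2 and is 6.75 times the mean of the other arrays of its group. The deposited values before normalization already showed this, at 318 on array 2 against 73.2 and 68.9 on arrays 1 and 3.

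With 12 arrays Abcc4 was not called in any comparison. FoxO-deficient myeloid progenitors over FoxO-deficient LSK cells gave 1.09 ± 0.62 (limma adjusted p = 0.286), and the wild-type comparison gave -0.12 ± 0.62 (adjusted p = 0.924). Without array 2 both were called higher in myeloid progenitors, at 1.09 ± 0.18 in FoxO-deficient cells (adjusted p = 0.0022) and 0.79 ± 0.20 in wild-type cells (adjusted p = 0.0199). On the 11 other arrays Abcc4 thus ran opposite to the members that fell. The FoxO change in myeloid progenitors was 0.42 ± 0.62 with 12 arrays and was not called in either fit.

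Abcg3, a rodent half-transporter of the G subfamily whose substrate is not established, separated the cell types most. Probe set 1421168_at read 7.07, 1.85 and 6.69 in FoxO-deficient and 1.02, 0.283 and 1.26 in wild-type myeloid progenitors. It read 130, 110 and 114 in FoxO-deficient and 214, 81.1 and 160 in wild-type LSK cells. It exceeded the background limit on 6 of 6 LSK arrays and on 0 of 6 myeloid progenitor arrays, so only a lower bound of the fold can be given.

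Abcg3 was at least 15.0-fold lower in wild-type myeloid progenitors than in wild-type LSK cells (limma adjusted p = 4.58e-05), and at least 13.6-fold lower in FoxO-deficient myeloid progenitors than in FoxO-deficient LSK cells (adjusted p = 0.000294). Each bound sets the LSK mean against the background limits of the myeloid progenitor arrays. The second probe set, 1450141_at, read 0.891, 6.99 and 6.47 in FoxO-deficient and 8.72, 6.91 and 2.96 in wild-type myeloid progenitors, and 42.5, 35.9 and 43.7 in FoxO-deficient and 47.2, 29.2 and 53.6 in wild-type LSK cells. It was also called lower in both genotypes, in wild-type cells with 1 of 3 myeloid progenitor arrays above the limit (adjusted p = 0.014) and at least 4.67-fold in FoxO-deficient cells (adjusted p = 0.0055). Its wild-type call was lost without wild-type myeloid progenitor array 9 (adjusted p = 0.053).

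Between the genotypes Abcg3 could be compared only in LSK cells. In myeloid progenitors all 6 arrays of 1421168_at lay under their background limit, so no change is given, although the fit had a limma adjusted p of 0.113 (0.0456 without array 2). For 1450141_at the limma adjusted p there was 0.841, with 1 of 6 arrays above the limit. In LSK cells, where it exceeded the limit on all 6 arrays, the FoxO change of 1421168_at was -0.25 (95% interval -1.37 to 0.86, adjusted p = 0.858).

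**Figure D2:**
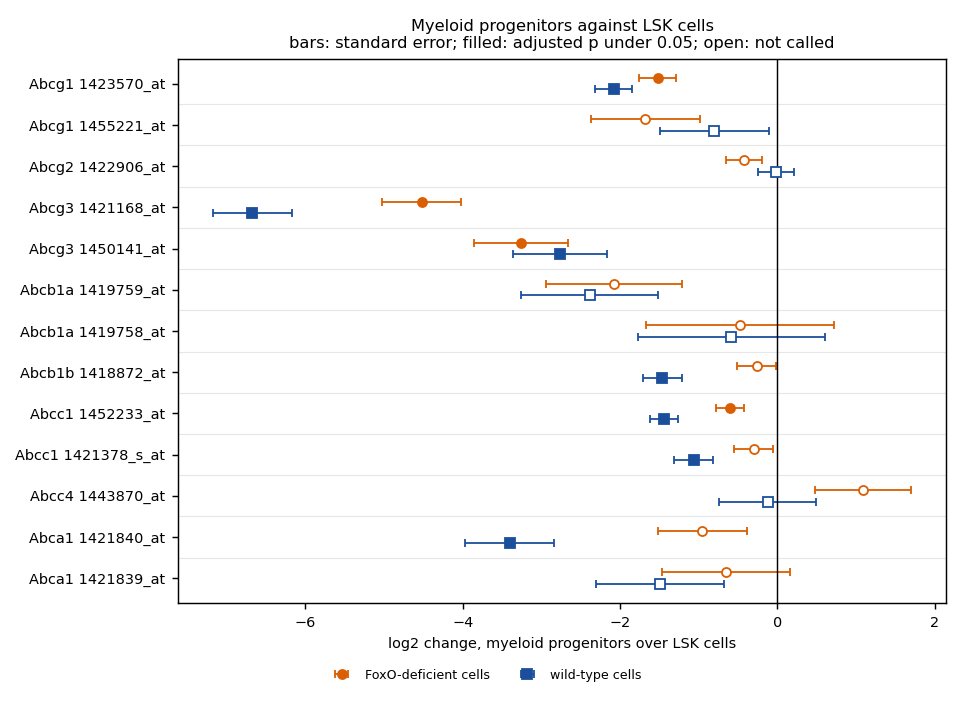
Log2 change of myeloid progenitors over LSK cells for the 13 tested probe sets, in FoxO-deficient cells (circles) and wild-type cells (squares), with standard errors; filled symbols have an adjusted p under 0.05. All 7 filled wild-type and all 4 filled FoxO-deficient symbols lie below 0, and Abcg3 1421168_at lies farthest from 0 in both.

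By overlap of arrays, 8 of the 13 probe sets had all 3 wild-type myeloid progenitor arrays below all 3 wild-type LSK arrays, against 14.4% of all tested probe sets. In FoxO-deficient cells 9 of the 13 lay wholly below and 1, Abcc4, wholly above, against 21.3% and 25.6% of all tested probe sets. Without array 2, 8 of the 12 probe sets still tested were called in wild-type cells, 7 lower and Abcc4 higher, against 25.1% of all tested probe sets called in either direction. In FoxO-deficient cells 6 were called, 5 lower and Abcc4 higher, against 30.6%.

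For FoxO deficiency, none of the 13 probe sets was called in either cell type by limma. In LSK cells 1 (Abcc1 1452233_at) had an unadjusted p under 0.05, as did 10.5% of all tested probe sets, of which 0.148% were called. In myeloid progenitors 3 had an unadjusted p under 0.05 (Abcg3 1421168_at, Abcb1b 1418872_at and Abca1 1421840_at, each with FoxO-deficient arrays above wild-type arrays), as did 12.2% of all, of which 1.46% were called. Without array 2, Abcb1b and Abcg3 1421168_at, 2 of 12, were called in myeloid progenitors, against 6.23% of all; the Abcg3 call compares values that were all under the background limit and is not read as a difference.

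Over the 13 probe sets the median log2 change with FoxO deficiency was 0.12 in myeloid progenitors and -0.42 in LSK cells, where all tested probe sets had medians of 0.02 and 0.01. Arrays lay wholly above in FoxO-deficient myeloid progenitors for 4 of 13 probe sets and wholly below for 1, against 15.0% and 13.3% of all tested. Those above were Abcb1b, Abcc4, Abca1 1421840_at and Abcg3 1421168_at, and the 1 below was Abcg2. The Abcg3 values there were all under the background limit and are not read as a difference. In LSK cells 2 of 13, from Abcc1 and Abca1, lay wholly below, against 7.57% of all. The test of the difference between the FoxO effects called 0 of 13, against 0.588% of all, and 4 had an unadjusted p under 0.05, as did 10.5% of all: Abcb1b (1.20), Abcc1 1452233_at (0.84), Abca1 1421840_at (2.45) and Abcg3 1421168_at, which was under background in both myeloid progenitor groups.

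**Figure D3:**
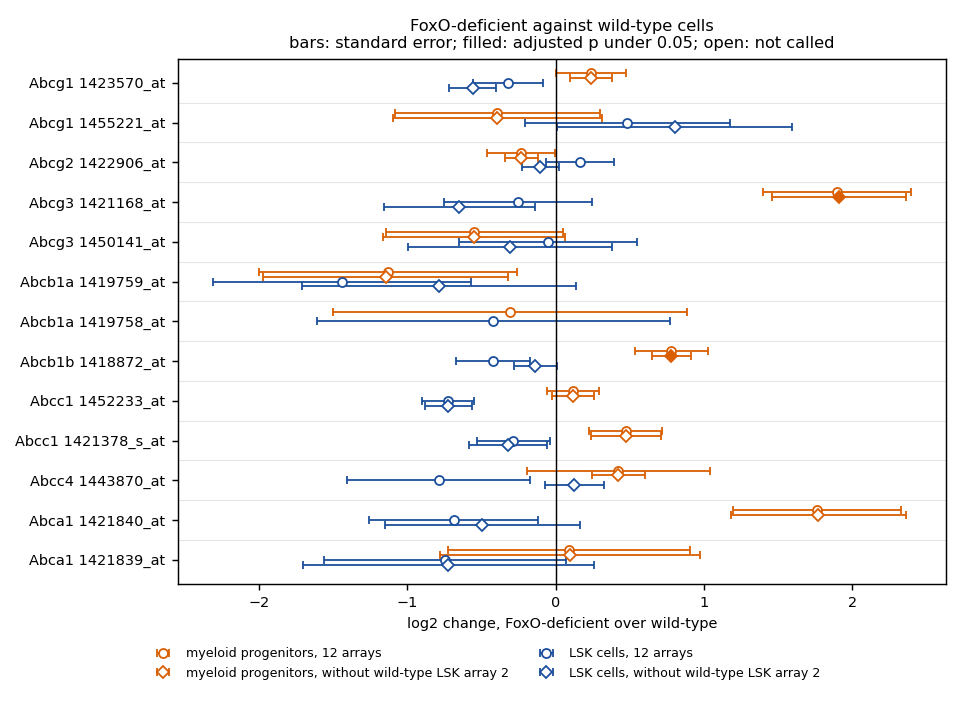
Log2 change of FoxO-deficient over wild-type cells for the 13 tested probe sets, in myeloid progenitors and LSK cells, with standard errors; circles are fits of 12 arrays and diamonds fits without wild-type LSK array 2, for which Abcb1a 1419758_at was too dim to be tested. The only filled symbols are the myeloid progenitor values of Abcg3 1421168_at and Abcb1b without array 2, and the Abcg3 arrays behind that symbol were all under the background limit.

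The other mouse ABC genes were counted beside the 8, as a description only, because the 8 were chosen with earlier results of these data known. Of a list of 45, 40 had a probe set and 28 were bright enough to test, by the brightest tested probe set of each gene. In wild-type cells 8 of the 28 were called higher and 1 lower in myeloid progenitors than in LSK cells, against 8.00% and 10.0% of 13732 genes; of the 8 genes described above, 0 were called higher and 5 lower. In FoxO-deficient cells 6 of the 28 were called higher and 2 lower, against 8.53% and 8.51% of genes. These counts depend on array 2. Without it further genes were called, among them Abcc5 (limma adjusted p = 0.00495 in wild-type and 0.0036 in FoxO-deficient cells) and Abca3 (0.0146 and 0.0147). Tap1 was then called in wild-type cells (0.0279). The median log2 change of the 28 was 0.33 in wild-type and 0.57 in FoxO-deficient cells, where all genes had 0.02 and 0.11 and the 8 genes described above had -1.77 and -0.78.

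Abcb4, the phosphatidylcholine flippase of bile canaliculi, is the next gene after Abcb1b on chromosome 5 and ran opposite to it. It averaged 273 in FoxO-deficient myeloid progenitors against 33.4 in FoxO-deficient LSK cells (8.18-fold higher, log2 change 3.01 ± 0.35, limma adjusted p = 0.000431), and 407 in wild-type myeloid progenitors against 36.3 in wild-type LSK cells (11.2-fold higher, 3.46 ± 0.35, adjusted p = 0.000237). Abcg4, a cholesterol exporter related to Abcg1 and known in megakaryocyte progenitors, was called higher in myeloid progenitors than in LSK cells of the same genotype. The rise was at least 3.21-fold in FoxO-deficient cells (limma adjusted p = 0.0135) and at least 5.19-fold in wild-type cells (limma adjusted p = 0.00252). Abca9 was called higher in wild-type myeloid progenitors (adjusted p = 0.028), where it averaged 39.7, with 1 of 3 wild-type LSK arrays above the background limit. Abca4, the retinal flippase, was called lower in myeloid progenitors than in LSK cells of the same genotype. The fall was at least 2.28-fold in FoxO-deficient cells (limma adjusted p = 0.0078). In wild-type cells (limma adjusted p = 0.00983), 1 of 3 myeloid progenitor arrays was above the background limit. Abca5 was called lower in FoxO-deficient myeloid progenitors than in FoxO-deficient LSK cells (-2.11 ± 0.46, limma adjusted p = 0.0135).

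**Figure D4:**
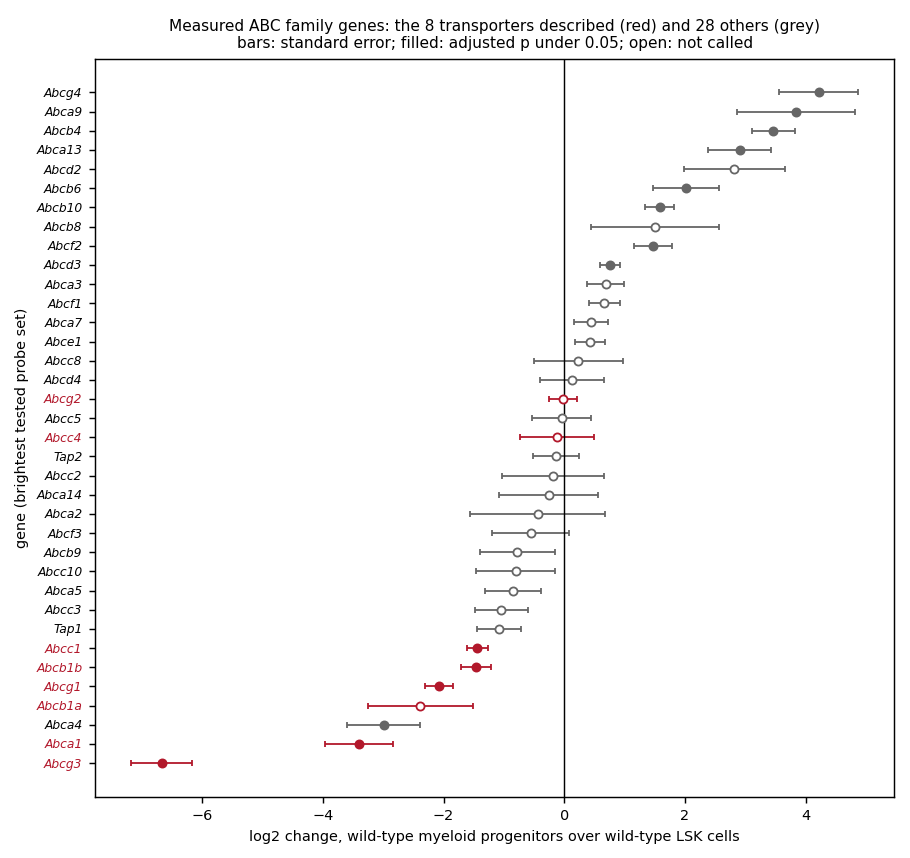
Log2 change of wild-type myeloid progenitors over wild-type LSK cells, with standard errors, for the 8 transporters described (red) and 28 other tested ABC genes (grey), 1 probe set per gene; filled symbols have an adjusted p under 0.05. The 5 filled red symbols lie below 0, and 8 of the 9 filled grey symbols lie above it.

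No other ABC gene was called for FoxO deficiency in LSK cells, in myeloid progenitors or in the difference, against 0.167%, 1.48% and 0.619% of genes. Without array 2, Abcb6, a mitochondrial and porphyrin transporter, was lower in FoxO-deficient myeloid progenitors (means of 80.7 against 186 in wild-type cells, adjusted p = 0.0179); it was singled out after its values were seen.

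Genes around cholesterol export and drug efflux were counted beside the members. Of 15 measured genes of the liver X receptor and cholesterol list, 3 were called higher (Abcg4, Lcat and Lpcat3) and 2 lower (Nceh1 and Npc1) in wild-type myeloid progenitors than in wild-type LSK cells, against 8.00% and 10.0% of all genes. In FoxO-deficient cells 2 were higher (Abcg4 and Lcat) and 3 lower (Nceh1, Npc1 and Rxra), against 8.53% and 8.51%. These counts depend on array 2. Without it Srebf2 (limma adjusted p = 0.000278) and Rxra (0.00671) were also called between the wild-type cell types. Between the FoxO-deficient cell types Srebf2 (4.41e-05) and Scarb1 (0.0167) were also called. Nceh1, which hydrolyses cholesterol esters, averaged 397 in FoxO-deficient myeloid progenitors against 1028 in FoxO-deficient LSK cells, and 310 in wild-type myeloid progenitors against 906 in wild-type LSK cells (log2 changes -1.37 ± 0.27 and -1.55 ± 0.27, limma adjusted p = 0.00735 and 0.00445). Npc1, which moves cholesterol out of lysosomes, fell by 1.46 ± 0.37 in FoxO-deficient and by 1.32 ± 0.37 in wild-type cells on the same scale, the wild-type call being lost without array 2 (adjusted p = 0.0719). The median of the list was 0.02 in FoxO-deficient and -0.04 in wild-type cells.

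Regulators of drug efflux genes were measured for 10 genes. Against LSK cells of the same genotype, 1 was called lower in FoxO-deficient and 2 in wild-type myeloid progenitors, and 0 higher. The shares of all genes called lower were 8.51% and 10.0%. Ahr, the aryl hydrocarbon receptor, which induces Abcg2 in several cell types, averaged 39.3 in FoxO-deficient myeloid progenitors against 240 in FoxO-deficient LSK cells, and 33.3 in wild-type myeloid progenitors against 264 in wild-type LSK cells. That was a fall of 6.10-fold and 7.93-fold (limma adjusted p = 0.000508 and 0.000292), while Abcg2 itself was not called with 12 arrays. Epas1, a hypoxia-inducible factor, was at least 2.45-fold lower in wild-type myeloid progenitors (adjusted p = 0.0291). None of either list was called for FoxO deficiency with 12 arrays. Without array 2 only Srebf2, a regulator of cholesterol synthesis, was called, in myeloid progenitors (limma adjusted p = 0.0312), where 6.23% of all tested probe sets were.

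The genes whose 12-array profiles lay nearest to the 3 most variable members were named by the smallest root mean square difference of centred log2 values, as a description. Nearest to Abcg3 were Ccn3 (0.57), a matricellular protein gene, Procr (0.68), the endothelial protein C receptor used as a stem cell marker, and Igk (0.74), an immunoglobulin light chain transcript. Procr averaged 5.17 in FoxO-deficient and 3.92 in wild-type myeloid progenitors, and 276 in FoxO-deficient and 228 in wild-type LSK cells. Nearest to Abca1 were Ghr (0.49), the growth hormone receptor, Asah2 (0.52), a neutral ceramidase, and Oas2 (0.55), an interferon-induced gene. Nearest to Abcb1a, which was close to background, were Cyp11a1 (0.66), Mpp3 (0.71) and Cep126 (0.77).

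Because immunoglobulin transcripts lay near Abcg3, B cell markers are given beside it. The 4 measured mature B cell markers summed to 231 to 256 in FoxO-deficient and 156 to 186 in wild-type myeloid progenitors, and to 796 to 980 in FoxO-deficient and 351 to 738 in wild-type LSK cells. In FoxO-deficient myeloid progenitors 2 of the 4 were called lower than in FoxO-deficient LSK cells, against 8.51% of all genes. In wild-type myeloid progenitors 1 was called lower than in wild-type LSK cells, against 10.0%. On all 3 arrays 3 of the 4 exceeded the background limit in every group; Cd79a, a part of the B cell receptor, exceeded it on no array of either wild-type group, and on at least 1 array of each FoxO-deficient group. Of the 4 measured T and NK cell markers 1 was called higher in myeloid progenitors in each genotype and 0 lower. The shares of all genes called higher were 8.53% in FoxO-deficient and 8.00% in wild-type cells. The marker was Nkg7, a cytotoxic granule gene, whose 2403 in FoxO-deficient and 1702 in wild-type myeloid progenitors made up most of the list's sum. The part of lymphoid cells in the Abcg3 values was not tested.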

How the data were processed

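The authors deposited 1 intensity on a linear scale for each of 45101 probe sets on 12 arrays. Per the labels' protocols, sorted cells gave total RNA that was amplified and labelled in triplicate with the NuGEN Ovation system; the summarisation software is not named in any source used here. The deposited intensity values were not on a common distribution. From them log2(intensity + 0.6) was computed, where 0.6 is the 10th percentile over the whole table, and arrays were quantile normalized. Printed intensities are antilogs of these values less 0.6. Means over arrays were taken on the log2 scale before this step, so they can lie below the arithmetic mean of the printed values. The 64 control probe sets were left out, as were probe sets not above the 40th percentile of their array on at least 3 arrays, which left 31779. Log2 changes are on the log2(intensity + 0.6) scale, which understates changes of dim probe sets; folds are ratios of the printed mean intensities, and so are slightly larger.

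Gene names came from the platform annotation, in which 34945 probe sets had 1 symbol, 932 several and 9160 none; 34741 symbols were updated through the RefSeq gene table of GRCm38.p6, which also gave gene order. Probe sets with several symbols were named for no gene. Where 1 value per gene was needed, the tested probe set with the highest mean was used. An array's background limit was the highest of 27 bacterial control probe sets, 4.54 to 12.4. For a bound, the mean of the bright group was divided by these limits, or by the dim probe set's own values where higher.

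limma 3.58.1 in R 4.3.3 fitted 1 mean per group to all 12 arrays (8 residual degrees of freedom) with 5 two-sided contrasts, and was tested on simulated data. Members and gene lists were chosen with earlier results of these data known. Named were every member probe set, the 3 nearest profiles of the 3 members with the widest range of group means, up to 4 called genes per list and comparison with the largest change, and Foxo1, Foxo3 and Foxo4. Other offsets, normalizations, filters, fits and array weights, and leaving out each array, were tried. Precision is limited by having 3 arrays per group.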

Additional observations from a re-analysis of the deposited data

How the results depend on the processing

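No paired analysis was possible because no replicate number is shared between groups. Of 592 comparisons of a single log2 change with its value under another setting of all arrays, 572 kept direction and side of the threshold, 6 lost and 5 gained a call, and 9 turned sign; with 1 array left out these were 715, 12, 7 and 31 of 765. No value called with 12 arrays changed sign; of the values that did, Abcc4 between wild-type cell types was called after the change, at 0.79 without array 2 (adjusted p 0.0199). The cause of each was not tested. When only the groups compared were fitted, which leaves fewer arrays, 4 of 13 probe sets were called lower in wild-type myeloid progenitors in place of 7. Abcb1b, Abca1 and Abcc1 1421378_s_at were lost, at limma adjusted p 0.0811, 0.0572 and 0.148. Leaving out arrays gave 6 to 8 calls in either direction. The 8, without array 2, were 7 lower and Abcc4 higher. For FoxO deficiency in myeloid progenitors array weights called 2 in place of 0 (Abcb1b and Abcg3 1421168_at), and leaving out arrays gave 0 to 2, with 2 without wild-type LSK array 2 and 1 without FoxO-deficient myeloid progenitor array 11. Between the FoxO-deficient cell types Abcc1 1452233_at lost its call under median scaling (limma adjusted p 0.345), cyclic loess (0.0527) and no filter (0.123). There Abcc4 gained one with only the groups compared (0.00893) and array weights (0.00665).

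Array weights turned Abcg2 to -0.065 and Abcc4 to 0.091 for FoxO deficiency in LSK cells, Abca1 1421839_at to -0.0083 in myeloid progenitors, Abcb1a 1419759_at to -0.089 in the difference, and Abcc4 to 0.74 between wild-type cell types. Median scaling turned Abcg2 to 0.32 and Abcc4 to 0.051 between wild-type cell types, and Abcg3 1450141_at to 0.036 for FoxO deficiency in LSK cells (cyclic loess 0.0046). Leaving out arrays gave, for FoxO deficiency in LSK cells, Abcb1a 1419758_at -1.27 to 0.36, Abcg3 1421168_at -0.65 to 0.051, Abcg2 -0.10 to 0.32, Abcc4 -1.35 to 0.13 and Abcg3 1450141_at -0.31 to 0.12. In myeloid progenitors it gave Abcb1a 1419758_at -1.29 to 0.43, Abca1 1421839_at -0.75 to 0.90, Abcg3 1450141_at -0.96 to 0.22, Abcc1 1452233_at -0.018 to 0.21 and Abcg1 1455221_at -1.15 to 0.13. For the difference it gave Abcb1a 1419758_at -0.87 to 0.97, Abcb1a 1419759_at -0.48 to 1.18, Abca1 1421839_at -0.0014 to 1.65 and Abcg3 1450141_at -0.91 to 0.27. Between wild-type cell types it gave Abcb1a 1419758_at -1.44 to 0.40, Abcg2 -0.28 to 0.14 and Abcc4 -0.68 to 0.79, and between FoxO-deficient ones Abcb1a 1419758_at -1.25 to 0.27 and Abca1 1421839_at -1.27 to 0.16.

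Counts over all probe sets moved more. FoxO deficiency called 47 in LSK cells, against 0 with only the groups compared and 166 with an offset of 16, and 464 in myeloid progenitors, against 230 without array 12 and 1962 with array weights. The difference called 187, against 89 without array 6 and 712 with array weights. Between cell types 4655 were called in FoxO-deficient cells, against 3060 without array 4 and 10089 with array weights, and 4619 in wild-type cells, against 1261 with only the groups compared and 7778 without array 2. Median scaling put the median of all probe sets at 0.23 in FoxO-deficient and 0.19 in wild-type cells, in place of 0.06 in each, and the share of calls that were higher at 63.1% and 64.4%, in place of 46.6% and 47.8%; the 7 wild-type calls of members were lower under it too. Signal near background limits Abcb1a, Abca1 in wild-type myeloid progenitors and Abcg3 in all myeloid progenitors.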
